A study of Mus musculus with 3 samples.

Results

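Gkn3-positive endothelial barcodes are the droplets of a GFP-sorted single-cell library that carried endothelial transcripts and several molecules of the gastrokine gene Gkn3. A barcode marks a droplet, taken here as a cell, and a unique molecular identifier (UMI) marks a counted transcript. A barcode was a member if it had at least 500 detected genes, at least 4 UMIs of the endothelial adhesion genes Pecam1 and Cdh5 together, and at least 5 UMIs of Gkn3. The rule found 251 members among the 2509 endothelial barcodes of the GFP-positive library, a share of 10.0% (exact 95% interval 8.86% to 11.2%), and among 8072 barcodes in the series. The members were chosen by their counts of Gkn3, Pecam1 and Cdh5, and a comparison group below by its count of Sox17, so the levels of these 4 genes are given as a description.

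The mice were ICR animals of genotype HCN4H2BGFP at postnatal day 2, and every library came from this same genotype, strain and age. The allele name joins Hcn4, which codes for a pacemaker channel, to a histone fused with green fluorescent protein (GFP), a label that sits in the nucleus. The series held 3 libraries, each the single library of its group: HCN4-GFP+ and HCN4-GFP- cells sorted from the sinoatrial node region, and a library titled RA whose tissue label is also the sinoatrial node region and whose cells were unsorted. The number of animals behind a library was not stated, and without replicates no comparison here carries a test: intervals are exact 95% intervals that cover counting error only. The 3 libraries held 50416748, 38204709 and 19975326 UMIs.

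Gastrokines are small secreted proteins best known from the stomach lining, and Gkn3 has been used as a marker of arterial endothelium in mouse brain atlases. Large conducting arteries have an endothelium that expresses elastic-fibre genes and Gja5, the gap junction gene of arterial endothelium. Arterial identity is set by Sox17 and Notch signalling, and capillary endothelium instead uses genes for fatty acid uptake and collagen IV basement membrane.

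The members held 3387 UMIs of Gkn3 and 0 UMIs of the other gastrokine genes, Gkn1 and Gkn2. A single member held 5 to 83 Gkn3 UMIs, with a median of 10 and quartiles of 6 and 17.5, and 133 of them had at least 10. Among the other endothelial barcodes 1643 had no Gkn3 UMI and 615 had 1 to 4. As a background level, barcodes without any Pecam1 or Cdh5 UMI held 14 CPM of Gkn3 (CPM, the summed UMIs of a gene scaled to the group's total), and 14.9% of these 262 barcodes had a Gkn3 UMI at a median depth of 12197 UMIs. The members held 696 CPM (672 to 720), the other endothelial barcodes 30.6 CPM (28.7 to 32.5). Among barcodes with at least 5 Gkn3 UMIs, 2 missed the endothelial cutoff.

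The start regions of Gkn3 and Cytl1, the marker gene with the most UMIs in the members, are shown because their transcripts were high in the same barcodes. Both are RefSeq windows of 300 bases around the gene start in build GRCm38.p6, not the build of the counts. Gkn3 lies at chr6:87388886-87389185 on the minus strand and Cytl1 at chr5:37735269-37735568 on the plus strand, and capitals mark AGATAA, the GATA factor core.
Gkn3: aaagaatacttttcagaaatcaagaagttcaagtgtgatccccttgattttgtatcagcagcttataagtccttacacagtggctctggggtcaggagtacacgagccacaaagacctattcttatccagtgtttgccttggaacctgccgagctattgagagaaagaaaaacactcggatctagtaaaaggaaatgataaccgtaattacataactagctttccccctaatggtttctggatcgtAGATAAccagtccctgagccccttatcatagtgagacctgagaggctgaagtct
Cytl1: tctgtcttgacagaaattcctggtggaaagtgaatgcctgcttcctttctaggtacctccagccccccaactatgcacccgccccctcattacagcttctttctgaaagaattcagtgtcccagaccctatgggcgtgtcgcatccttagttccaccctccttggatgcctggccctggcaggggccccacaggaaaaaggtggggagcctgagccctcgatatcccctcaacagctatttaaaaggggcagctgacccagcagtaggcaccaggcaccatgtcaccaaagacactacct
Searched on both strands, AGATAA occurred once in the Gkn3 window and in none of the windows of Cytl1, Dhh and Gja5, and it occurs in 11.2% of 32841 such windows. The SOX core ACAAT, found in 31.0% of windows, and the RBPJ core TGGGAA, found in 25.6%, were not in any of these 4 windows.

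The other 4 marker genes of the set were all higher in the members than in the rest of the endothelium. Dhh, the desert hedgehog ligand, stood at 268 CPM in the members (254 to 283), at 152 CPM in the 159 other Sox17-high barcodes (139 to 166) and at 90.4 CPM in all 2258 other endothelial barcodes (87.1 to 93.7). Other Sox17-high barcodes are those with at least 4 Sox17 UMIs and fewer than 5 of Gkn3, and they are part of the 2258. Cytl1, a small secreted cytokine-like protein, stood at 1922, 524 and 402 CPM in the same order. Sfrp1, a secreted antagonist of Wnt ligands, stood at 881, 143 and 129 CPM. Gja5 stood at 303, 237 and 47.9 CPM. Cytl1 and Sfrp1 were thus more than 2-fold higher in the members than in either group, and Dhh and Gja5 only against all other endothelial barcodes, with log2 ratios of 0.82 (0.67 to 0.97) and 0.35 (0.23 to 0.48) against the Sox17-high barcodes.

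**Figure D1:**
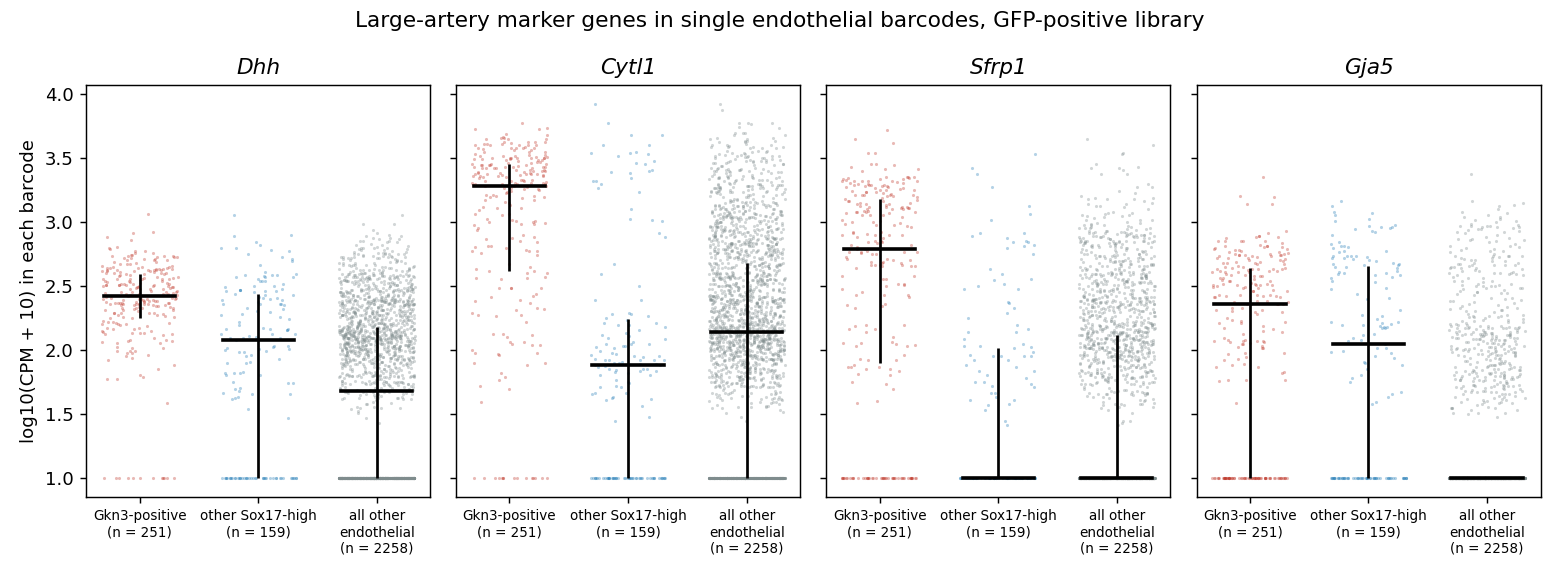
Level of 4 marker genes in each endothelial barcode of the GFP-positive library, as log10(CPM + 10); points are barcodes, the horizontal bar is the median and the vertical line runs between the quartiles. The median of Sfrp1 lies at 0 UMIs in both comparison groups and at 610 CPM in the 251 members, and members without a UMI form the row at the bottom of each panel.

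In single barcodes the groups overlapped for every marker. A Dhh UMI was present in 95.2% of members, a Cytl1 UMI in 94%, an Sfrp1 UMI in 80.5% and a Gja5 UMI in 71.7%. All 4 were present in 155 members (61.8%), against 42 of 159 other Sox17-high barcodes (26.4%) and 167 of 2258 other endothelial barcodes (7.40%). The members were deeper, with a median of 17869 UMIs against 16437 and 11563. With every barcode thinned to 2000 UMIs and none left out, a Dhh UMI remained in 37.5%, 29.6% and 16.6%, a Cytl1 UMI in 79.7%, 26.4% and 34.6%, and an Sfrp1 UMI in 57.8%, 15.7% and 16.3%. The thinned shares of Gja5 were 37.5%, 28.9% and 6.51%, and in barcodes without Pecam1 or Cdh5 they were 1.91% for Dhh, 12.6% for Cytl1, 18.3% for Sfrp1 and 5.73% for Gja5. The thinned Sfrp1 shares of both comparison groups were therefore at or below the share in barcodes without Pecam1 or Cdh5. Those barcodes give no background level for Sfrp1. Markers of other cell classes made up at least 1% of UMIs in 91.6% of them. In the GFP-negative library, barcodes without Pecam1 or Cdh5 held 256 CPM of Sfrp1.

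Levels moved in steps with the number of Gkn3 UMIs, on both sides of the cutoff. Sfrp1 stood at 94.5 CPM in barcodes with no Gkn3 UMI, 209 CPM with 1 to 4, 549 CPM with 5 to 9, 855 CPM with 10 to 19 and 1507 CPM with 20 or more. Cytl1 went from 336 to 552, 1411, 1931 and 2818 CPM over the same steps. Dhh and Gja5 levelled off: within the members Dhh stood at 261, 274 and 274 CPM, and Gja5 at 279, 315 and 332 CPM, with overlapping intervals between neighbouring steps. At the cutoff itself, the 43 barcodes with 4 Gkn3 UMIs held 204 CPM of Dhh, 179 CPM of Gja5 and 76.6 CPM of Sox17. The 39 barcodes with 5 held 230, 263 and 174 CPM, while Cytl1 (1247 and 1186 CPM) and Sfrp1 (393 and 353 CPM) were not higher. No intervals were computed at this step, so its small differences give no direction. Median depth was 12327 UMIs in the barcodes with 4 and 16405 UMIs in those with 5. The cutoff of 5 UMIs therefore bounds a range of levels. Median depth also differed over the steps, from 11166 UMIs at 0 Gkn3 UMIs to 21251.5 UMIs at 20 or more, and its part was not tested.

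**Figure D2:**
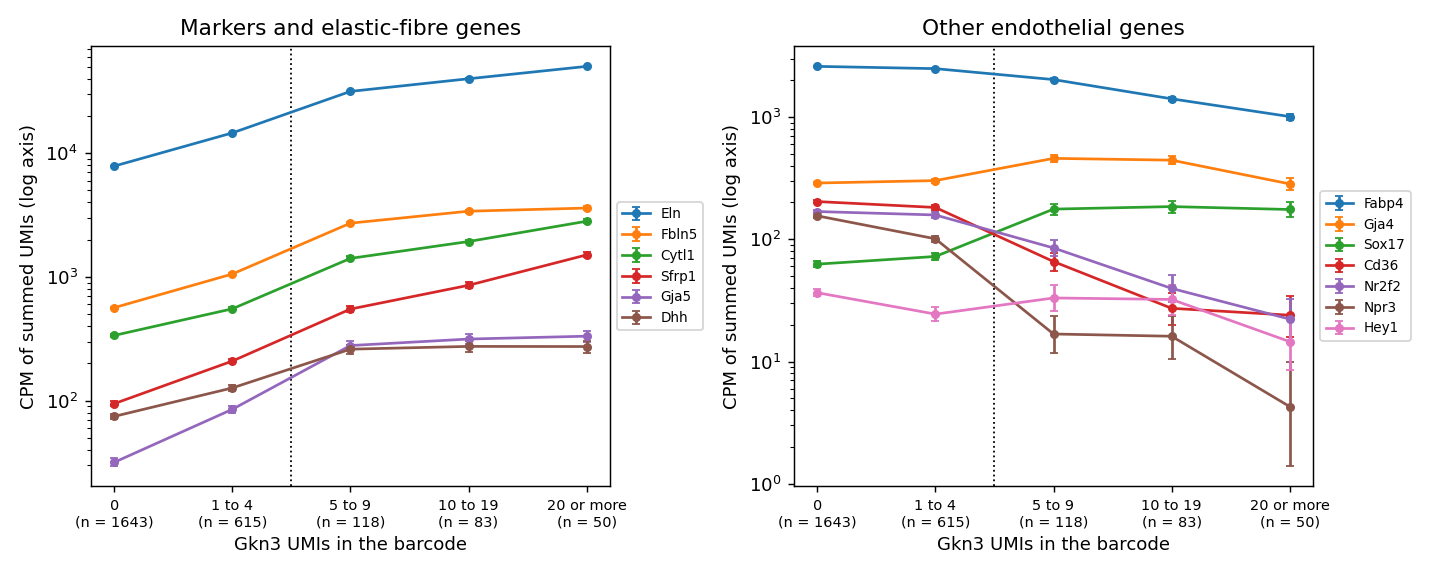
Level in CPM of summed UMIs, on a log axis, against the number of Gkn3 UMIs per barcode in 5 steps; bars are exact 95% Poisson intervals and the dotted line is the membership cutoff. Elastin (Eln) climbs from 7856 to 50248 CPM, while Cd36 goes from 204 to 23.9 CPM and the venous regulator gene Nr2f2 from 169 to 22.2 CPM.

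The other libraries held almost no such barcodes. None of 189 endothelial barcodes of the GFP-negative library had a Gkn3 UMI, which allows a share of barcodes with a UMI of up to 1.59% (3 counts of the total), and 2 of 252 did in the RA library (0.794%), each below 5 UMIs. In the GFP-positive library 866 of 2509 had one (34.5%). Sox17-high barcodes were present in all 3 libraries, with 241 in the GFP-positive, 17 in the GFP-negative and 25 in the RA library. In that order, Dhh had a UMI in 81.7%, 17.6% and 4% of them, and Cytl1 had 0 UMIs in those of the GFP-negative and RA libraries, at median depths of 14803 and 19083 UMIs. Against a floor of 3 UMIs summed over those groups, which is 8.68 and 5.98 CPM, the GFP-positive Sox17-high barcodes held 1134 CPM of Cytl1. These 241 include members, and the 159 with fewer than 5 Gkn3 UMIs held 524 CPM. Cytl1 was not absent from the other libraries. Over all their endothelial barcodes it stood at 51.6 CPM in the GFP-negative and 50.8 CPM in the RA library, with a UMI in 12.7% and 16.3%. The sort and the library cannot be told apart here. Of the members' barcode sequences 1 occurred also in the GFP-negative library and 3 in the RA library.

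The members were not uniform, and levels of the marker set differed between groups of them. The markers were chosen with earlier results of these data known, so their levels do not test the label of large-artery endothelium. Endothelial barcodes were clustered with Gkn3, Pecam1, Cdh5 and Sox17 left out, which gave 19 clusters. On average 53.8% of the 15 nearest neighbours of a member were members, against 10.0% of all endothelial barcodes. Cluster 7 held 105 members (41.8%), cluster 0 held 46 (18.3%), cluster 10 held 36, cluster 12 held 25, cluster 11 held 21 and cluster 6 held 10, and 8 lay elsewhere. Levels within these sets describe the clusters, since the same genes formed them.

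Members of cluster 7, led by Pcolce2, Sfrp1 and Cytl1, had the marker set in full, with 2816 CPM of Cytl1, 1452 CPM of Sfrp1 and 348 CPM of Gja5. The 25 members of cluster 12, led by Clec3b and interferon-induced genes, were similar in Cytl1 (2801 CPM) and higher in Gja5 (448 CPM) and Hey2 (129 CPM). Members of cluster 10 were led by mitotic genes, with 682 CPM of Ube2c against at most 33.0 CPM in the other sets, and they held 1672 CPM of Cytl1 and 921 CPM of Sfrp1. Members of cluster 11, which also held 80 of the 159 other Sox17-high barcodes (50.3%), had 645 CPM of Gja5. They held 416 CPM of the chemokine gene Cxcl12 and 4748 CPM of the tight junction gene Cldn5. Cytl1 and Sfrp1 were low in them beside the 3 sets above, at 256 and 44.8 CPM, so they too lacked part of the marker set.

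The 46 members of cluster 0 and the 10 of cluster 6 were low in the arterial genes Gja5 and Sox17 but not in every marker. Gja5 stood at 15.6 CPM (7.13 to 29.6) in cluster 0 and 16.5 CPM (2.00 to 59.6) in cluster 6, and Sox17 at 8.66 and 16.5 CPM. Nr2f2, a regulator of venous identity, stood at 203 and 157 CPM, against 12.8 CPM in the members of cluster 7. The apelin receptor gene Aplnr, used as a venous and sprouting marker, stood at 151 and 239 CPM against 3.74 CPM. Members of cluster 0 held 656 CPM of Rspo3, a secreted amplifier of Wnt signalling, and 1562 CPM of Vwf, the von Willebrand factor gene. Members of cluster 6 held 3217 CPM of Inhba, an activin subunit, 363 CPM of Wnt9b and 1600 CPM of Nppc, a natriuretic peptide. None of these 56 members (22.3%) had a Sox17 count of 4 or more. Bmx, a kinase of large-artery endothelium, stood at 152 CPM in the members of cluster 0, 33.0 CPM in those of cluster 6 and 179 CPM in those of cluster 7, and Eln at 23191, 11862 and 51173 CPM. Dhh stood at 220 CPM (183 to 262) in cluster 0, 297 CPM (208 to 411) in cluster 6 and 283 CPM (259 to 308) in cluster 7. Because of these members the set is called by its rule and not by a vessel type.

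**Figure D3:**
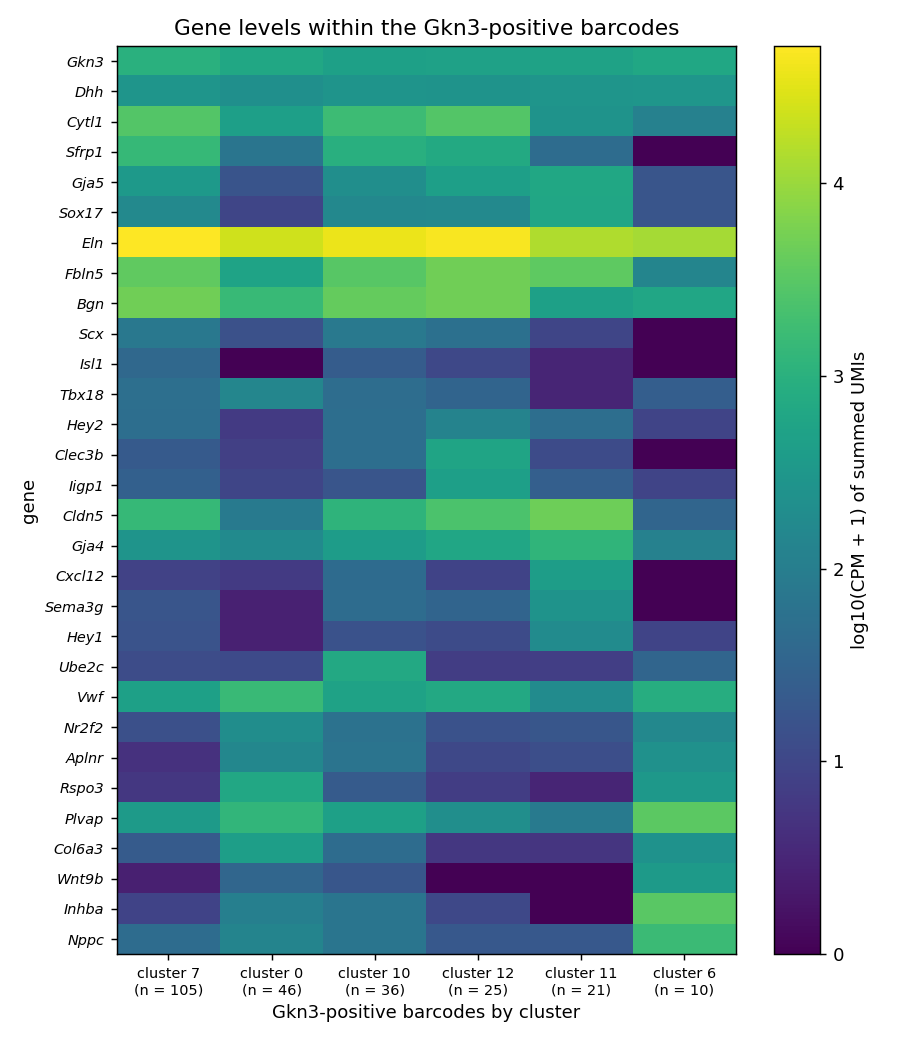
Levels of 30 genes, as log10(CPM + 1) of summed UMIs, in the Gkn3-positive barcodes of the 6 clusters with at least 10 of them; each column is 1 cluster and n is its number of members. The Dhh row is nearly even across columns, Gja5 and Sox17 are low in clusters 0 and 6, and Rspo3, Nr2f2 and Aplnr are high there.

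Members were also set beside the other barcodes of their own cluster for 10 genes, a comparison chosen after the values were seen. In cluster 7 the 105 members and the 59 other barcodes held 283 and 286 CPM of Dhh, 2816 and 2706 CPM of Cytl1, and 348 and 325 CPM of Gja5, with intervals of the log2 ratio that hold 0. There Ptprj, a receptor phosphatase, stood at 116 against 54.7 CPM (log2 ratio 1.06, 0.60 to 1.58), Sfrp1 at 1452 against 1002 CPM (0.53, 0.42 to 0.65) and Gxylt2, a xylosyltransferase, at 865 against 654 CPM (0.40, 0.26 to 0.55), and Eln and Fbln5 were higher by less. In cluster 0 the 46 members and 225 others held 220 and 219 CPM of Dhh and 23191 and 22239 CPM of Eln, while Sfrp1 stood at 65.8 against 105 CPM (-0.66, -1.21 to -0.18). In cluster 11 the 21 members and 109 others differed, with 13931 against 3764 CPM of Eln, 284 against 143 CPM of Dhh and 645 against 348 CPM of Gja5. Cluster 10 differed in the same direction, with 36593 against 14301 CPM of Eln and 1672 against 319 CPM of Cytl1. In cluster 12 the 25 members held less Dhh than the 49 others (265 and 334 CPM, -0.33, -0.63 to -0.04). Cytl1 and Eln were also lower there, by less, while Sfrp1, Sod3 and Gxylt2 were higher. In cluster 6 the 10 members held 115 CPM of Cytl1 against 291 CPM in the 154 others. They held more Dhh (297 and 116 CPM), Eln, Gxylt2 and Ptprj. Median depth was higher in the members in each of these clusters but cluster 6 (9386 against 10493 UMIs), for example 17308 against 12631 UMIs in cluster 7. The part of depth in the split was not tested.

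Elastic-fibre genes, which build the stretchable lamellae of large arteries, were in part higher in the members, and none was lower than in the other Sox17-high barcodes. Genes with at least 10 UMIs in both groups together were measured, and a gene was counted as higher or lower if its ratio reached 2-fold and its counting interval left out equality. By this measure 7 of 18 elastic-fibre genes were higher, where 4.46% of all 12141 genes measured were higher and 4.83% lower. Eln, which codes for elastin, stood at 38816 CPM in the members, 11511 CPM in the other Sox17-high barcodes and 9893 CPM in all other endothelial barcodes. Every endothelial barcode had an Eln UMI, and barcodes without Pecam1 or Cdh5 had one in 95% of cases after thinning, so its presence alone marks no cell type. In single members Eln ran from a 10th percentile of 165 UMIs through a median of 631 to a 90th percentile of 1443, and in the Sox17-high barcodes from 13 through 61 to 715, so the ranges overlapped.

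The lysyl oxidase gene Lox, whose enzyme cross-links elastin, stood at 334, 125 and 105 CPM in members, other Sox17-high and all other endothelial barcodes. Mfap5, a microfibril protein, stood at 960, 288 and 404 CPM, and Fbln5, a fibulin needed for elastic-fibre assembly, at 3154, 1455 and 713 CPM. The latent TGF-beta binding protein gene Ltbp3, Emilin1 and Efemp1 completed the 7, with ratios of 2.69, 2.35 and 2.89. Against all other endothelial barcodes 4 of 19 were higher, where the share of all 14792 genes was 3.43%, and 3 were lower, where it was 7.86%. The lower genes were Fbn2, Loxl2 and Mfap4, which stood at 6.98, 18.3 and 0.616 CPM in the members and at 23, 49.0 and 5.55 CPM in the others. The Mfap4 level in the members is that of the floor of 3 UMIs over the group. Mfap4 is also a leading gene of cluster 17, which is 8 barcodes without a member. Their part in its ratio was not tested. With only the 82 members that also had at least 4 Sox17 UMIs, 8 of 18 elastic-fibre genes were higher than in the other Sox17-high barcodes and none lower, where 3.83% of all 11495 genes measured were higher and 5.23% lower. For all members, the background of each list count below is 4.46% higher and 4.83% lower against the Sox17-high barcodes. Against all other endothelial barcodes it is 3.43% and 7.86%.

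Matrix genes from other lists were mixed. The proteoglycan gene Bgn, placed in the venous list, stood at 3626, 988 and 1079 CPM. Col1a2, a fibrillar collagen gene from the fibroblast list, stood at 946, 229 and 306 CPM. The fibroblast list had 2 of 7 genes higher, Col1a1 and Col1a2, and none lower than in the Sox17-high barcodes, and 1 of 8 higher and 5 lower than in all other endothelial barcodes. That list's summed level was 1861 CPM in the members, 799 CPM in the other Sox17-high barcodes and 1900 CPM in all other endothelial barcodes, 7 of its 8 markers had a UMI in the members, and the fibroblast regulator Tcf21 was at 0. No more than 1 member had at least 1% of its UMIs from lists of other cell classes, and what part other cells played in these levels was not tested beyond that.

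Most capillary genes were lower in the members. Of 23 measured, 17 were lower and 1 higher than in the other Sox17-high barcodes, and 16 were lower and none higher than in all other endothelial barcodes. The median log2 ratio of the list was -2.75 against the Sox17-high barcodes, or -2.57 with genes at 0 UMIs placed at their bound, beside -0.03 for all genes measured. Cd36, a fatty acid transporter, stood at 42.9 CPM in the members, 493 CPM in the other Sox17-high and 197 CPM in all other endothelial barcodes. Rgcc, a cell cycle regulator, stood at 10.3, 232 and 61.1 CPM, and Gpihbp1, which anchors lipoprotein lipase to capillaries, at 53.8, 363 and 166 CPM. Kdr, the main VEGF receptor, stood at 57.9, 245 and 152 CPM. Btnl9 had 0 UMIs in the members, at least 47.6-fold lower than the 29.3 CPM of the Sox17-high barcodes. The exception was Plvap, a protein of fenestral diaphragms, at 531 against 261 CPM. Its ratio rested on clusters 0 and 6, where its level was 1270 and 3357 CPM, and without those members it was 347 CPM and inside the 2-fold limit. With only the members that had at least 4 Sox17 UMIs, 20 of 23 capillary genes were lower, beside 5.23% of all genes.

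Of the basement membrane genes, 6 of 19 were lower and 1, Col4a5, higher than in the other Sox17-high barcodes. The collagen IV genes Col4a1 and Col4a2 stood at 34.9 and 23.6 CPM in the members, 513 and 331 CPM in the Sox17-high and 252 and 152 CPM in all other endothelial barcodes. Col15a1, Col18a1, Nid2 and Vwa1 were the others. The laminin genes were within 2-fold of the Sox17-high barcodes, and so were Sparc (5434 and 5359 CPM) and Hspg2, the perlecan gene (467 and 386 CPM). Tip-cell genes, used by endothelium at growing sprouts, were lower in 7 of 13 cases against the Sox17-high barcodes, with Esm1 at 0 UMIs in the members, at least 8.42-fold lower, and Angpt2 at 1.44 against 12.5 CPM. Some of these genes stand in several lists: Col4a1, Nid2 and Apln are counted in more than 1.

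**Figure D4:**
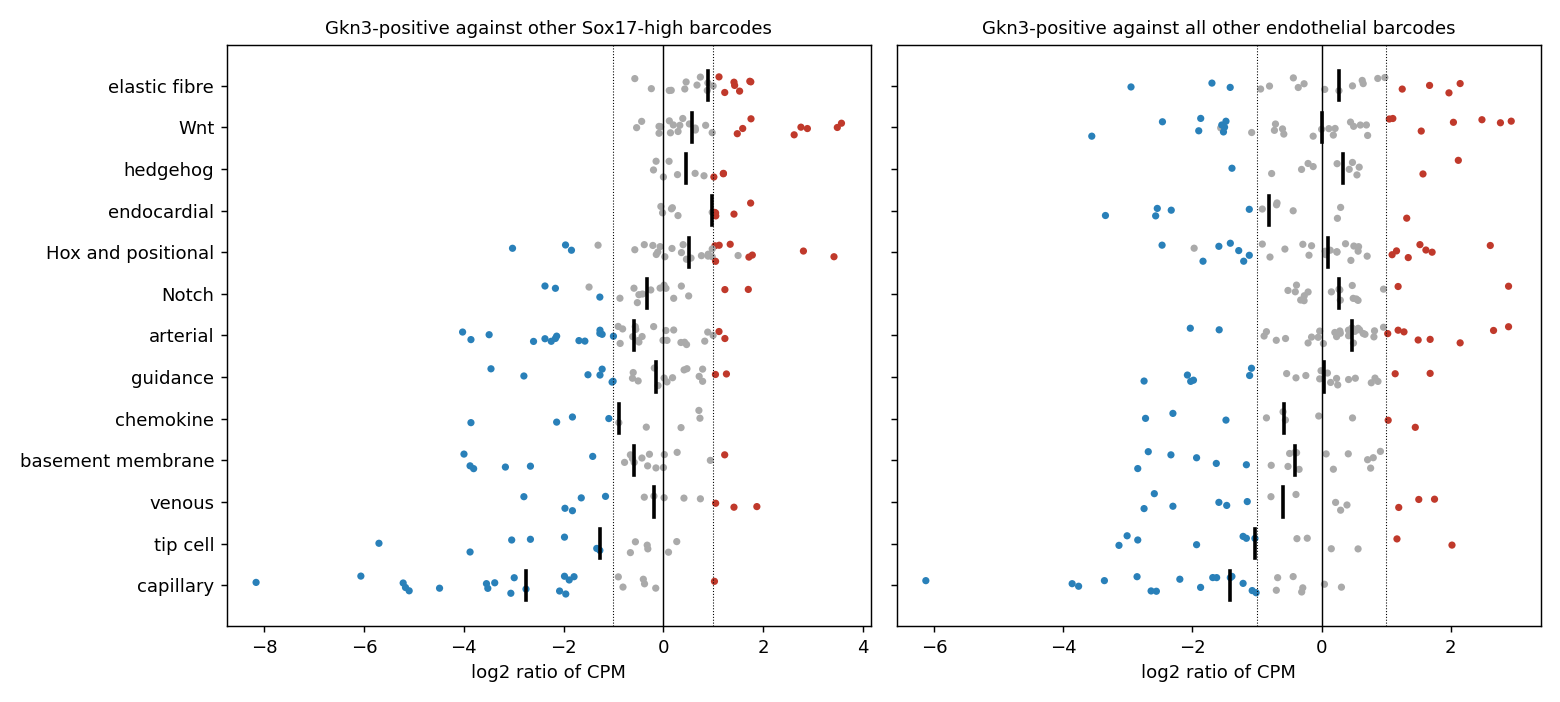
Log2 ratio of CPM for each measured gene of 13 lists, Gkn3-positive barcodes against the other Sox17-high barcodes (left) and against all other endothelial barcodes (right); red and blue points are higher and lower genes, grey points lie between, bars are list medians and dotted lines mark 2-fold. Genes at 0 UMIs in a group are drawn with 0.5 UMIs added and are not bounds. The capillary list lies to the left of 0 in both panels, with medians of -2.75 and -1.41.

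Arterial genes divided. Against all other endothelial barcodes 8 of 36 were higher and 2 lower, and against the other Sox17-high barcodes 2 were higher and 14 lower. Hey2, a Notch target of arterial endothelium, was higher in both comparisons, at 52.0 CPM in the members, 22 CPM in the other Sox17-high barcodes and 6.98 CPM in all other endothelial barcodes. Its relative Hey1 went the other way, at 28.3, 127 and 32.9 CPM. Cxcl12, which guides arterial assembly through its receptor Cxcr4, stood at 54.0, 784 and 97.8 CPM. The Notch ligand genes Dll4 and Jag2 stood at 23.2 and 3.29 CPM against 56.2 and 17.4 CPM in the Sox17-high barcodes, and the semaphorin gene Sema3g at 46.0 against 108 CPM. Sema3g was still higher than in all other endothelial barcodes (14.4 CPM). Bmx and the Notch ligand gene Jag1 were higher than in all other endothelial barcodes, at 156 against 76.9 CPM and 174 against 76.4 CPM.

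Since only 82 of 251 members (32.7%) had at least 4 Sox17 UMIs, the same list was also read within them. Of 36 arterial genes 4 were then higher and 11 lower than in the other Sox17-high barcodes, beside the 3.83% and 5.23% of all genes given above. Sox17 itself stood at 179 CPM in all members, 487 CPM in the Sox17-high barcodes and 65.6 CPM in all other endothelial barcodes. The members with and without 4 Sox17 UMIs differed from each other in Cxcl12 (116 and 6.86 CPM), Sema3g (90.9 and 11.9 CPM), Hey1 (53.3 and 9.39 CPM) and Vegfc, the lymphatic growth factor (98.6 and 22 CPM). Those without held more Inhba (194 against 3.33 CPM) and Rspo3 (162 against 4.76 CPM). Their median depths were 23280.5 and 15235 UMIs, and the part of depth in this split was not tested.

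Of 18 Notch pathway genes, 2 were higher and 3 lower than in the other Sox17-high barcodes, beside 4.46% and 4.83% of all genes. Against all other endothelial barcodes 2 were higher and none lower, beside 3.43% and 7.86%. The receptor genes Notch1 and Notch4 stood at 130 and 33.3 CPM in the members and 112 and 46.7 CPM in the Sox17-high barcodes, and Notch2 at 12.3 against 3.66 CPM. The target Hes1 stood at 325 against 593 CPM.

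Of the hedgehog genes, 3 of 10 were higher than in the Sox17-high barcodes and none lower, beside 4.46% and 4.83% of all genes. These were Boc, a co-receptor, at 26.3 against 11.3 CPM, and Disp1, which releases the ligand, at 6.57 against 2.75 CPM. The other was the effector gene Gli3, at 6.98 against 3.36 CPM. Disp1 and Gli3 were low in both groups, so their ratios rest on few counts. Ptch1, the receptor and a direct target of the pathway, stood at 18.7 against 18.6 CPM, and the target Gli1 had 0 UMIs in the members and 3 in the Sox17-high barcodes. The ligand genes Shh and Ihh had 1 UMI each in the members.

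Several secreted Wnt antagonists were higher in the members. Against the Sox17-high barcodes 8 of 24 Wnt genes, Sfrp1 among them, were higher and none lower. Sfrp2 stood at 86.5, 30.8 and 15.5 CPM in members, other Sox17-high and all other endothelial barcodes, the antagonist gene Frzb at 16.2, 1.22 and 3.95 CPM, and Dkk3 at 41.7, 12.2 and 20.2 CPM. Dkk2, another antagonist, was higher only against all other endothelial barcodes, at 195 against 25.5 CPM. The transcription factor genes Tcf7 and Lef1 were at 10.5 and 3.29 CPM against 3.36 and 0.305 CPM in the Sox17-high barcodes. There Lef1 lay under a floor of 3 UMIs over the group, so its ratio rests on very few counts. Frzb, at 1.22 CPM in the Sox17-high barcodes, was close to that floor. The pathway target Axin2 stood at 2.05 and 2.14 CPM. Rspo3 and Wnt9b were also counted as higher, at 94.1 against 8.24 CPM and 17.5 against 2.44 CPM. Without the members of clusters 0 and 6 they were inside the limit, at 9.59 and 5.04 CPM, and 6 of 24 Wnt genes were higher, where 4.24% of all 11987 genes were. Against all other endothelial barcodes 7 of 31 were higher and 8 lower, beside 3.43% and 7.86% of all genes measured. Among the lower were Wnt4 (3.70 and 21.0 CPM) and Rspo1 (8.22 and 23.8 CPM). Rspo1 is a leading gene of cluster 14, whose 51 barcodes hold 1 member and so lie mostly in the comparison group. The part of that cluster in its ratio was not tested.

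The BMP and TGF-beta list was mixed, with 6 of 29 higher and 5 lower than in the Sox17-high barcodes. The shares of all genes measured were 4.46% and 4.83%. The ligand gene Bmp4 stood at 368 against 152 CPM and Bmp2 at 12.9 against 52.2 CPM. The receptor gene Bmpr1a stood at 43.3 against 9.77 CPM, and Id1, a direct BMP target, at 232 against 635 CPM. Inhba stood at 112 against 4.88 CPM. Its level came mostly from the 10 members of cluster 6, and without clusters 0 and 6 it was 22.1 CPM. Mgp, an inhibitor of BMP ligands and of calcification, stood at 4564, 2285 and 2920 CPM, which is just under the 2-fold limit against the Sox17-high barcodes.

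Among genes of vessel tone, Ptgis, which makes prostacyclin, stood at 374, 133 and 164 CPM in members, other Sox17-high and all other endothelial barcodes and was higher in both comparisons. Ace, the angiotensin-converting enzyme gene, stood at 306, 155 and 72.8 CPM, and Kcnn4, a calcium-activated potassium channel of endothelium, at 99.0, 52.8 and 26.3 CPM. The mechanosensitive channel gene Trpv4 stood at 46.0, 35.1 and 19.9 CPM. Endothelin receptor gene Ednrb was lower than in all other endothelial barcodes, at 44.0 against 153 CPM. The flow-responsive genes Klf2 and Klf4 were within 2-fold in both comparisons, at 1303 and 509 CPM in the members and 1339 and 571 CPM in the Sox17-high barcodes. The whole list had 4 higher and 3 lower of 26 against the Sox17-high barcodes and 5 and 5 of 26 against the rest. The shares of all genes were 4.46% and 4.83% against the Sox17-high barcodes and 3.43% and 7.86% against the rest.

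Of 17 junction genes, 1 was higher and 1 lower than in the Sox17-high barcodes, beside 4.46% and 4.83% of all genes measured. The gap junction gene Gja4, a partner of Gja5, stood at 412 against 772 CPM, and Cldn5 at 1574 against 2119 CPM. Both were within the 2-fold limit and are not among the genes counted. Guidance genes were lower more often than higher, with 7 and 2 of 22. Robo4, an endothelial receptor that stabilises vessels, stood at 3.70 against 41.5 CPM, Nrp2 at 8.63 against 60.4 CPM and Unc5b at 35.5 against 85.8 CPM. With members of at least 4 Sox17 UMIs only, 4 were lower and none higher. Of 9 chemokine genes 4 were lower, led by Cxcl12 and Cxcr4.

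Transcription factor genes of position and heart field differed between sets of members. Isl1, a second heart field and pacemaker regulator, stood at 21.2 CPM in the members, 1.83 CPM in the other Sox17-high barcodes and 3.46 CPM in all other endothelial barcodes, and 25.9% of members had a UMI. Tbx18, a regulator of sinus node precursors, stood at 54.4, 7.63 and 19 CPM, and Tbx1, a regulator of the outflow tract and pharyngeal arches, at 26.7, 7.63 and 12.6 CPM. The members of cluster 7 held both Isl1, at 38.5 CPM, and Tbx18, at 52.4 CPM. Those of cluster 0 had 0 UMIs of Isl1 and 142 CPM of Tbx18. Over all barcodes of a cluster, members or not, the levels were similar. Isl1 and Tbx18 stood at 32.9 and 46.0 CPM in cluster 7 and at 0.674 and 123 CPM in cluster 0. These levels thus go with the clusters and are not particular to the members. Tbx3, a pacemaker regulator, stood at 1.64 against 14 CPM in the Sox17-high barcodes. The list of Hox and positional genes had 8 higher and 3 lower of 30 against the Sox17-high barcodes, including Hoxa3 (27.1 and 13.1 CPM) and Hoxa4 (21.2 and 8.24 CPM). Without the members of clusters 0 and 6 it had 6 higher and 4 lower, where 5.77% of all genes were lower, and the heart regulators Gata4 and Tbx5 were no longer among the higher.

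Markers of other endothelial beds were mixed. Of all genes measured, 4.46% were higher and 4.83% lower than in the Sox17-high barcodes. Against all other endothelial barcodes these shares were 3.43% and 7.86%. Venous genes had 3 higher and 5 lower of 13 against the Sox17-high barcodes: Bgn, Vwf (629 and 236 CPM) and Vcam1 (478 and 231 CPM) were higher, and Aplnr, Nrp2 and Ackr1 were among the lower. Selp, the P-selectin gene, was higher than in all other endothelial barcodes, at 72.7 against 31.8 CPM. Endocardial genes had 5 higher of 11 against the Sox17-high barcodes, but these were Vwf, Plvap, Cgnl1, Gata4 and Bmp6. The endocardial gene Npr3 stood at 13.6 and 11 CPM there and at 139 CPM in all other endothelial barcodes. Without clusters 0 and 6 the number was 2 of 11. Lymphatic genes had none higher and 6 of 7 lower against all other endothelial barcodes, with Prox1 at 15.2 against 61.0 CPM and Mmrn1 at 4.31 against 60.4 CPM. In the list of insulin-like growth factors, their binding proteins and H19, 8 of 11 were lower against the same group, with the maternally expressed H19 RNA at 547 against 2407 CPM.

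The summed level of the 16 G2/M genes was 1135 CPM in the members, 905 CPM in the other Sox17-high barcodes and 738 CPM in all other endothelial barcodes. Against each group 1 of the 16 was higher and none lower, with list medians of the log2 ratio of 0.61 and 0.83, beside -0.03 and -0.11 for all genes measured. Of all genes 4.46% and 3.43% were higher against these groups, so a count of 1 is near the background. By barcode the order differed. At least 5 UMIs of G2/M genes were present in 39.0% of members (33.0% to 45.4%), 49.7% of other Sox17-high barcodes (41.7% to 57.7%) and 29.0% of all other endothelial barcodes. Thinned to 2000 UMIs, any G2/M UMI was present in 44.2%, 49.1% and 39.9%. None of 17 immediate early and heat shock genes passed the 2-fold limit in either comparison, nor did any of 14 S-phase genes. The GFP feature had a UMI in 56.6% of members, 56.6% of other Sox17-high and 36.9% of all other endothelial barcodes, at 60.8, 55.9 and 40.7 CPM. Thinned to 2000 UMIs these shares were 9.96%, 8.81% and 7.79%, and in barcodes without Pecam1 or Cdh5 27.1% had a GFP UMI, or 5.73% after thinning. Hcn4 itself had a UMI in 4 members (1.59%).

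Markers of other cell classes made up a median of 0.255% of a member's UMIs, against 0.115% in the other Sox17-high and 0.169% in all other endothelial barcodes. The fibroblast list, at 1861 CPM as given above, held the most of them. The members' summed cardiomyocyte markers came to 464 CPM, against 470 CPM in the Sox17-high barcodes and 1288 CPM in all other endothelial barcodes. Summed smooth muscle and pericyte markers came to 87.5 CPM, with Myh11 and Cspg4 at 0, and summed mesothelial markers to 123 CPM. Macrophage markers came to 8.01 CPM with Adgre1 and Fcgr1 at 0, and red cell markers to 49.5, 45.2 and 49.4 CPM in the 3 groups. Of the glial list S100b was higher, at 25.3 against 4.58 CPM in the Sox17-high barcodes, with Sox10 at 0.

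Outside the lists, the genes that led over the other Sox17-high barcodes were named by rule: the 15 with the largest ratio at 50 CPM or more and with a UMI in at least 20% of barcodes of the higher group. They included matrix genes, namely Col6a3 (78.3 and 8.24 CPM), Spon1 (111 and 18.3 CPM), Vcan (135 and 27.2 CPM) and Smoc1 (99.4 and 19.5 CPM). Among enzymes were Sod3, the extracellular superoxide dismutase, at 272 against 51.6 CPM, Nt5e, which makes adenosine at the cell surface, at 120 against 20.8 CPM, and Ephx2, an epoxide hydrolase, at 98.2 against 14.3 CPM. Gxylt2, whose enzyme acts on Notch receptors, stood at 621 against 101 CPM, with a UMI in 92.0% and 47.2% of barcodes. Ncam1, a neural adhesion molecule, stood at 241 against 39.7 CPM, and Scx, a tendon and valve regulator, at 56.9 against 11.6 CPM. Perp, Nppc, Tmem45a, Camk4 and 1500015O10Rik completed the 15, with ratios from 4.98 to 6.95. Col6a3, Vcan, Smoc1 and Ephx2 were inside the 2-fold limit against all other endothelial barcodes, which held 46.5, 86.2, 75.2 and 63.3 CPM. The rest of the 15 were higher in that comparison too. Col6a3 and Nppc leaned on clusters 0 and 6, and without those members their log2 ratios went from 3.22 and 2.66 to 1.54 and 1.55. With the Sox17-positive members only, Col6a3 came to 0.84.

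The 12 lowest by the same rule were led by C1qtnf9, a secreted relative of adiponectin, at 2.26 against 62.9 CPM. It had a UMI in 35.2% of the Sox17-high barcodes, with a median of 0. Of those barcodes 31 (19.5%) lay in cluster 9, whose leading genes include C1qtnf9, Mgll, Adgrl4 and Ifi203. The taurine transporter gene Slc6a6 stood at 36.6 against 423 CPM, the lipase gene Mgll at 33.1 against 313 CPM and Ly6c1, a surface antigen of capillary and arteriolar endothelium, at 40.3 against 344 CPM. The interferon-inducible genes Mndal and Ifi203 stood at 5.96 and 9.24 CPM against 72.3 and 110 CPM. Car7, Rgs16, Adgrl4, Ccnd1, Rasgrp3 and the Ccl21a feature with the ID ENSMUSG00000094686 were the others, and Ccl21a has several near-identical copies, so its reads are uncertain. Its median was 1 UMI in the members and in the Sox17-high barcodes, where the highest barcode held 1460 UMIs, and its thinned shares were 17.1% and 15.1%.

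Against all other endothelial barcodes the 8 leading genes were Ptprj (91.0 and 13.3 CPM), Scx, Sod3, the ephrin gene Efna5 (168 and 29.7 CPM), Plek2, Kazald1 (237 and 45.7 CPM), 1500015O10Rik and Serpina1d. The lowest 8 included Ccl21a, Pard6g, Tgfbi and Dusp2. The other 4 were the airway genes Scgb3a2, Scgb1a1, Scgb3a1 and Wfdc2, which the members held at the level of the other Sox17-high barcodes (273 and 282 CPM of Scgb3a2). All other endothelial barcodes held 3190 CPM of Scgb3a2. Without clusters 14, 16, 17 and 18, of which cluster 18 was 8 barcodes led by Sftpb, Sftpd and other airway genes, its log2 ratio went from -3.55 to -0.10.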

How the data were processed

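Single-cell RNA libraries were made with a 10x Genomics kit, per the labels' protocols. For each library the authors deposited a matrix of unnormalised UMI counts over 28001 features, made with Cell Ranger on build mm9 per the submitters' processing notes; versions, filters and doublet handling are not given in the sources used here. From these counts, UMIs were summed over barcodes and given as CPM with exact Poisson 95% intervals. Ratios between groups had 0.5 UMIs added and an exact conditional binomial interval, and shares have Clopper-Pearson intervals. A gene was counted as higher or lower at 2-fold with an interval leaving out equality, among genes with at least 10 UMIs in both groups together. With 1 library per group no test was run, and intervals cover counting error only. UMIs at 0 were set against a floor of 3 UMIs over the group.

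Clusters came from scanpy 1.11.5 and leidenalg 0.10.2 under Python 3.11.15 (2000 variable genes, 30 components, 15 neighbours, resolution 1), without the genes Gkn3, Pecam1, Cdh5 and Sox17. No doublet caller was run. Intervals came from scipy 1.17.1. They were checked only on simulated Poisson sums, which leave out the spread between barcodes. Genes outside the lists were named by rank of ratio, 15 highest and 12 lowest against the Sox17-high barcodes and 8 at each end against all other endothelial barcodes, at 50 CPM and 20% of barcodes of the higher group. The lists held 448 genes, of which 444 were found. The members and lists were chosen with earlier results of these data known.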

Additional observations from a re-analysis of the deposited data

How the results depend on the processing

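The share of Gkn3-positive barcodes was 14.1% with a minimum of 3 Gkn3 UMIs, 5.30% with 10 and 11.6% with at least 8 Pecam1 and Cdh5 UMIs, against 10.0%. Against the Sox17-high barcodes, where 542 genes were higher and 586 lower, thinning to 2000 UMIs gave 264 and 292, and a log2 limit of 0.58 gave 961 and 1050. Against all other endothelial barcodes that limit gave 1004 higher and 1813 lower, against 507 and 1163. There the number lower was 433 after thinning, 601 with 5 UMIs added and 734 without G2/M barcodes. The leading cluster held 52.2% of members at resolution 0.5 and 21.1% at resolution 2, against 41.8%. Airway genes changed sign against all other endothelial barcodes: with members from 3 Gkn3 UMIs, Scgb3a2 came to a log2 ratio of 0.0050, Scgb1a1 to 1.04 and Scgb3a1 to 0.17, and without the deepest 5% of barcodes Scgb1a1 came to 0.028. Over named genes and settings, 724 of 961 values stayed within their counting interval, 233 moved beyond it and 4 changed sign; the cause was not tested. Leaving out clusters was chosen after seeing the data, and the counts over all genes stayed within 1.5 times. No paired analysis was possible because each group was 1 library.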

Other observations

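The 25 Gkn3-positive barcodes of cluster 12 were high in several of that cluster's leading genes, which helped to form it and were picked after their values were seen, so the levels are a description. The interferon-induced GTPase gene Iigp1 stood at 460 CPM there and at 27.3 CPM in the 105 members of cluster 7. Igtp, another GTPase of this family, stood at 150 CPM against 5.35 CPM. Psmb9, an immunoproteasome subunit gene, stood at 150 CPM against 10.7 CPM, with 49.1 CPM in the 21 members of cluster 11. Clec3b, which codes for tetranectin, stood at 563 CPM against 20.9 CPM. Other interferon-inducible genes did not share this: Mndal had 0 UMIs in the members of cluster 12 and stood at 47.0 CPM in those of cluster 11, and Ifi203 stood at 3.15 and 49.1 CPM.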
